A study of Mus musculus with 40 samples.

Results

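The genes described here build and drive the machinery that divides chromosomes and cells: kinetochores, the spindle and its motors, mitotic kinases, condensin and cohesin, the anaphase-promoting complex and the cytokinesis apparatus. They were chosen by gene symbol. A probe was a member if it was annotated with 1 gene whose symbol starts with Cenp, Kif, Bub, Mad2l, Aurk, Plk, Nek, Ncap, Smc, Anapc, Tacc or Tubg, or is Prc1, Racgap1, Pttg1, Cdc20, Incenp, Birc5, Top2a, Ndc80, Nuf2, Ect2, Anln, Tpx2, Nusap1, Espl1, Ube2c, Ttk or Mki67. Sept followed by a digit was also searched for, but the annotation spells the septins in full, so none matched. Ckap2 and Gtse1 were left out by the rule. In all, 90 of the 6970 named genes on the arrays were members, measured by 127 probes. Array design 1 held 49 of them on 57 probes, array design 2 held 56 on 70 probes, and 15 genes were on both.

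Treated embryos were mouse embryos kept in culture at 37 °C for 5 h with 40 µM 4-hydroperoxycyclophosphamide, a pre-activated form of the DNA-alkylating drug cyclophosphamide. Control embryos were kept at 37 °C without it. The sources used here give neither strain nor embryonic age, nor how many embryos were pooled. Each of the 40 two-colour cDNA arrays carried treated RNA in one channel and control RNA in the other. The 20 arrays of each design came from 5 replicates, each hybridised in both dye orientations, a slide for each, and read out 2 times per slide. The values are ratios only, so no level of a gene in either group could be given, and the tissue could not be checked against its markers.

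Ratios are given on the log2 scale as treated over control after each array was centred on its median, 1 value per replicate, and errors are SDs over the 5 replicates. Base 2 is an assumption, since the base of the deposited logarithm is not stated. The numerator is not stated either. The direction is the likely one, from the channel order in the labels and from Ccng1, a target gene of p53 that DNA damage induces: its turned ratio was above 0 in each of the 19 arrays with a value on array design 1 (2 probes) and in each of 20 on array design 2. With the other channel as numerator all signs below turn round, so that the 6 higher and 8 lower calls given below for array design 2 become 6 lower and 8 higher. Between replicates, values over all probes correlated at r of 0.30 to 0.73 on array design 1 and 0.35 to 0.69 on array design 2. Arrays of one dye orientation correlated as low as −0.35 between replicates on array design 2 (control embryos in channel 1). Dye effects were large in single slides: turned ratios of both orientations of a replicate correlated negatively, at r of −0.88 to −0.13 on array design 1 and −0.73 to −0.09 on array design 2. For that reason calls are given also with the dye-profile trend removed, which means that the part of a replicate's values that follows the probes' dye behaviour was fitted and subtracted. The fitted part took 34.4% to 74% of the variance of a replicate on array design 1 and 35.3% to 61.6% on array design 2.

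In mitosis, kinetochores assemble on the centromeric histone Cenpa and bind microtubules. The spindle checkpoint holds back the anaphase-promoting complex until all chromosomes are attached. Condensin compacts the chromosomes, kinesins and Aurora and Polo kinases shape the spindle, and Prc1 with the centralspindlin proteins Racgap1 and Kif23 then organises the midzone and the cleavage furrow. Many of these genes are transcribed in G2 and mitosis through promoter elements called CHR and CCAAT boxes, bound by the MuvB-containing complexes and NF-Y, and p53 is known to lower their transcription through p21 and those complexes. Embryos are known to hold many cycling cells, but ratios alone do not show which of these genes were active here.

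Few members moved, and by little. On array design 1, 5 member probes were higher and 4 lower in treated embryos among 57 (limma, Benjamini-Hochberg adjusted p below 0.05). That is 8.77% higher and 7.02% lower, against 10.2% and 5.77% of all 7680 probes. On array design 2, 6 of 70 member probes were higher and 8 lower, which is 8.57% and 11.4%, against 19.7% and 8.19% of all 7599 probes. The members' shares thus lay near or below the background for higher calls and slightly above it for lower calls. The 2 dye orientations had opposite signs in 4 of the 9 called member probes on array design 1 and 6 of the 14 on array design 2. Over all member probes this held for 37 of 57 and 50 of 70, and the share among all probes was not computed. In as many member probes, 37 and 50, the dye part was larger than the treatment part. The median member probe stood at 0.02 on array design 1 and −0.0073 on array design 2, beside −0.0024 and 0.016 for all probes. In single replicates the member median ran from −0.03 to 0.09 on array design 1 (mean 0.02, SD 0.06, n = 5) and from −0.08 to 0.07 on array design 2 (mean −0.02, SD 0.06, n = 5). With 1 readout kept that lacked 10.2% of its values, no member probe passed on array design 1, where 50 of all 7680 probes, 0.651%, did, so every call on that design rests on leaving that readout out. Of the 22 called probes that are named by rule, those of Anapc7, Prc1 (array design 2), Ncaph, Racgap1 and Cenpa passed with each replicate left out in turn, and the other 17 lost their call in at least 1 of these fits.

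**Figure D1:**
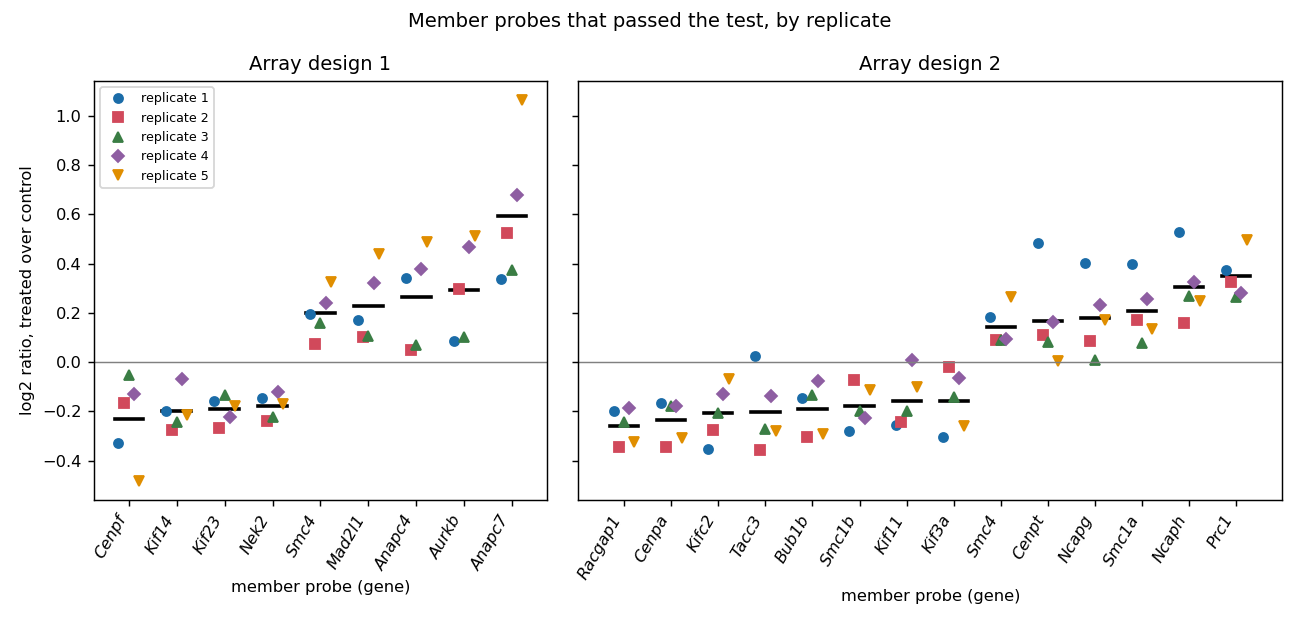
Log2 ratio, treated over control (y axis), of the 9 and 14 member probes past the threshold on array designs 1 and 2 (x axis). Symbols are the 5 replicates and bars their means. Replicates lie on one side of 0 except for Tacc3 (replicate 1) and Kif11 (replicate 4) on array design 2, and Anapc7 stands highest at a mean of 0.60.

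With the dye-profile trend removed, all member calls were falls. No member probe was then higher on either design, and 6 of 57 (10.5%) and 10 of 70 (14.3%) were lower, against 0.56% and 1.83% of all probes. Higher calls made up 1% of all probes on array design 1 and 3.18% on array design 2 in the same fits. The member median was −0.03 on array design 1 and −0.04 on array design 2. Each of the 5 replicates had a member median below 0 on both designs, from −0.06 to −0.02 on array design 1 and from −0.05 to −0.02 on array design 2. Of the 16 lower calls, 14 were probes of genes listed as peaking in G2 and mitosis. Of the 12 probes called lower before the trend was removed, 5 were also among these 16, which is 41.7% of the first and 31.2% of the second set. These were Racgap1, Bub1b and 1 probe each of Cenpa and Tacc3 on array design 2, and 1 probe of Kif23 on array design 1. The incomplete readout of array design 1 was left out here too. None of the 16 lower calls was tried with that readout kept, with a replicate left out or in a single dye orientation. Whether the subtraction itself moved members down was not tested. In whole embryos, fewer dividing cells and less of a transcript per cell cannot be told apart.

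**Figure D2:**
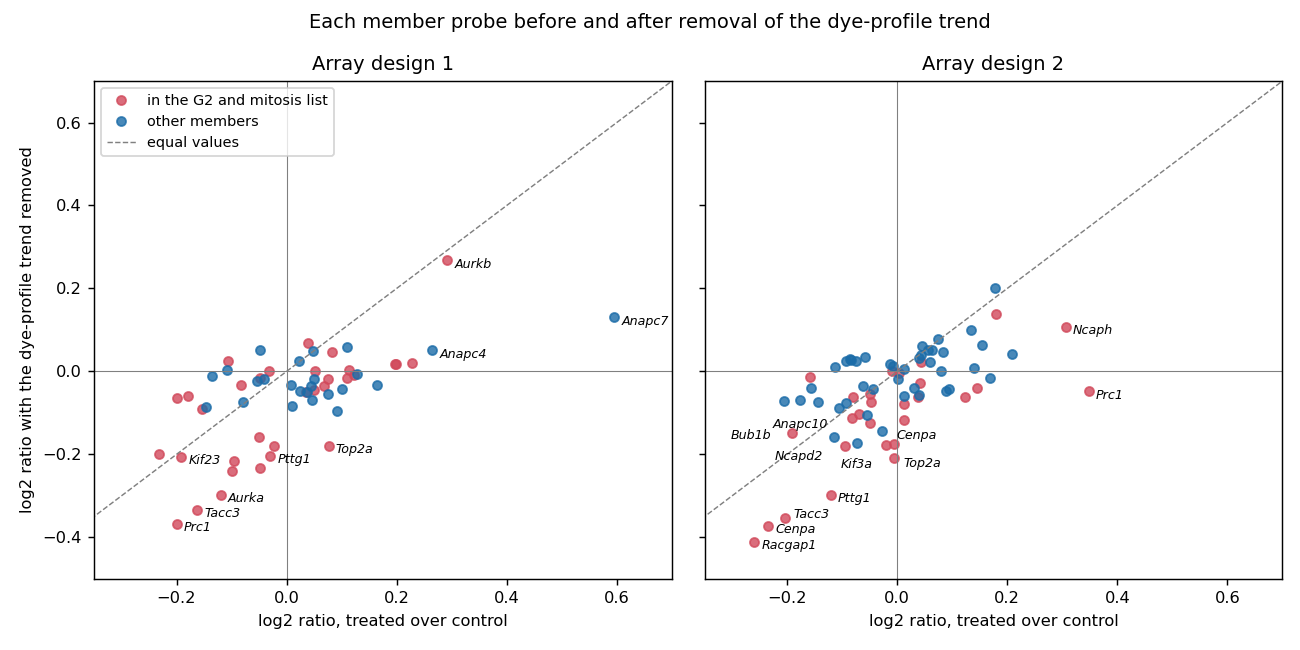
Each member probe by its mean log2 ratio, treated over control (x axis), and the same ratio with the dye-profile trend removed (y axis), by array design. Red marks genes of the G2 and mitosis list, blue the other members, and the dashed line equal values. Racgap1, Cenpa and Tacc3 lie lowest on the y axis of array design 2, while Anapc7, Prc1 (array design 2) and Ncaph lie far right but between −0.05 and 0.13 on the y axis.

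Racgap1, the GTPase-activating subunit of centralspindlin that is needed for cleavage, fell the furthest among the members. Its replicates stood at −0.20, −0.35, −0.24, −0.19 and −0.33 on array design 2. All lay below 0 and within a narrow band. The mean was −0.26 ± 0.07 (SD, n = 5, limma adjusted p = 0.000845), a 1.20-fold lower value in treated embryos. Slides with treated embryos in channel 1 averaged −0.29 and those with control embryos in channel 1 averaged −0.23 once turned, so both orientations had one sign. The slide series 2000 and 3000 gave −0.26 each. Racgap1 without the trend stood at −0.41 ± 0.10 (SD, n = 5, limma adjusted p = 0.00134).

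Cenpa, the histone H3 variant that marks the centromere, was read by 2 probes on array design 2. The probe numbered 2038 gave −0.17, −0.34, −0.18, −0.18 and −0.31, below 0 in every replicate. Its mean was −0.23 ± 0.08 (SD, n = 5, limma adjusted p = 0.00242), with −0.16 and −0.31 in the slides with treated and with control embryos in channel 1. The other probe, numbered 5505, averaged −0.02 ± 0.09 (SD, n = 5) and missed the threshold, with a limma adjusted p of 0.802. Both passed once the trend was removed, at −0.37 ± 0.08 (limma adjusted p = 0.00134) and −0.18 ± 0.07 (limma adjusted p = 0.026). The 2 probes of this gene thus differed in size by 0.21 before the trend was removed.

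Bub1b, the checkpoint kinase BubR1, was on both designs. Its replicates on array design 2 were −0.14, −0.31, −0.13, −0.08 and −0.29, with a mean of −0.19 ± 0.10 (SD, n = 5, limma adjusted p = 0.0134). Those on array design 1 were −0.03, −0.18, −0.09, −0.18 and −0.29, with a mean of −0.15 ± 0.10 that missed the threshold (SD, n = 5, limma adjusted p = 0.0842). All values were below 0 on both designs, which carry the same replicate numbers, so they may not be 10 separate samples. The designs did not differ by their test (difference 0.04, limma adjusted p = 0.848). Bub1b without the trend had −0.15 on array design 2 and −0.09 on array design 1 (limma adjusted p = 0.0459 and 0.298). The call on array design 2 ended when replicate 2 was left out (−0.16, limma adjusted p = 0.0648).

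Tacc3, which clathrin and Aurora A load onto spindle microtubules, had 3 probes that disagreed. The probe numbered 2643 on array design 2 gave 0.02, −0.36, −0.27, −0.14 and −0.28, with 1 replicate at about 0 and the rest below it. Its mean of −0.20 ± 0.15 passed (SD, n = 5, limma adjusted p = 0.0132), though not without replicate 2 (−0.17, limma adjusted p = 0.0725). The probe numbered 6724 on the same design averaged 0.12 ± 0.16 and the probe on array design 1 −0.16 ± 0.20, and neither passed. Removal of the trend put all 3 below 0, at −0.35, −0.06 and −0.33, and those at −0.35 and −0.33 passed (limma adjusted p = 0.00157 and 0.0129).

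Kif23, the kinesin partner of Racgap1 in centralspindlin, fell on 1 of its 3 probes. The probe numbered 1069 on array design 1 gave −0.16, −0.27, −0.13, −0.22 and −0.18, all below 0, with a mean of −0.19 ± 0.05 (SD, n = 5, limma adjusted p = 0.0355). The probe numbered 1774 on that design averaged 0.04 ± 0.07 and the one on array design 2 0.04 ± 0.14, and neither passed. The call on array design 1 ended when any replicate other than 3 was left out, with limma adjusted p up to 0.105. After trend removal the 3 probes stood at −0.21, −0.05 and −0.03, and the one numbered 1069 passed (limma adjusted p = 0.0431).

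The promoters of 6 genes are printed, those of the genes just described and of Prc1, to show which of them hold the letters known from control in G2 and mitosis. They cover 250 bases before to 50 bases after the start of the gene, 5′ to 3′ on its own strand, from RefSeq on build GRCm38.p6. Capitals mark TTTGAA, the letters of a CHR, and CCAAT, the letters bound by NF-Y, each searched on both strands (as TTCAAA and ATTGG on the other), and matches may overlap. Racgap1 lies at chr15:99651607-99651906 on the minus strand, Cenpa at chr5:30666636-30666935 on the plus strand, Kif23 at chr9:61946750-61947049 on the minus strand, Bub1b at chr2:118597961-118598260 on the plus strand, Prc1 at chr7:80294201-80294500 on the plus strand and Tacc3 at chr5:33657878-33658177 on the plus strand.
Racgap1: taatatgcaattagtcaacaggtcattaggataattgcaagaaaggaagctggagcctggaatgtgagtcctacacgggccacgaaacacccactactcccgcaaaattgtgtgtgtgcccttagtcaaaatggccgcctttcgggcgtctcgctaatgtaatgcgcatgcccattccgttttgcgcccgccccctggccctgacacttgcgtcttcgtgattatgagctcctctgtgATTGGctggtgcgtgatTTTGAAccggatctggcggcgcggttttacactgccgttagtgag
Cenpa: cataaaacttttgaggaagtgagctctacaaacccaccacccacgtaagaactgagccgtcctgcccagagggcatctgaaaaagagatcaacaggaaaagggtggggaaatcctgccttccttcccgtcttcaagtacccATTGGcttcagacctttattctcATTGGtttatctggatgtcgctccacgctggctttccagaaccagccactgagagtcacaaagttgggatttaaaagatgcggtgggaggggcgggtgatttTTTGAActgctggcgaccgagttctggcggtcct
Kif23: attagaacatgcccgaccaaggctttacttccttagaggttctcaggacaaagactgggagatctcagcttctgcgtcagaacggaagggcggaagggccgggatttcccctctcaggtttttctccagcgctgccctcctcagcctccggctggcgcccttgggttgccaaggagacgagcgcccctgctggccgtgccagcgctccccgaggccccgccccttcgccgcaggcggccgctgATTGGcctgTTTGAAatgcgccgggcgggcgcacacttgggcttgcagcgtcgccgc
Bub1b: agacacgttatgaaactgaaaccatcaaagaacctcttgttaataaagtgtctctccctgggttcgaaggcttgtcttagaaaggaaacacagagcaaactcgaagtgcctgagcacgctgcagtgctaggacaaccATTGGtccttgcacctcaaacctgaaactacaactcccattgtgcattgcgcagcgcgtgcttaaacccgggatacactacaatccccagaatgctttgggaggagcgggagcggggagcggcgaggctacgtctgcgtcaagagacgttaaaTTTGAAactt
Prc1: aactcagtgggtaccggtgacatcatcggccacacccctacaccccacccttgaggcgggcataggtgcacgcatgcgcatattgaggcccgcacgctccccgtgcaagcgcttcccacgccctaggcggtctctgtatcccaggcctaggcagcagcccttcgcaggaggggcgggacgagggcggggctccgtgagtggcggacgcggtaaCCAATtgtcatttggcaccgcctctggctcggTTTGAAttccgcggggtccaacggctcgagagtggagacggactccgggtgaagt
Tacc3: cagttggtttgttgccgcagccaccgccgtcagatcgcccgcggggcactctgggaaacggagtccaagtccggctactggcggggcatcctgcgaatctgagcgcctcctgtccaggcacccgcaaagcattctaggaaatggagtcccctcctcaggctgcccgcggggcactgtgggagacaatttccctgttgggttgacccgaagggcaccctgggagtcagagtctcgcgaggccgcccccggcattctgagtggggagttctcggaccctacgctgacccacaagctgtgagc
In Racgap1, Cenpa, Kif23 and Bub1b, and in Prc1, whose probes disagreed, a CCAAT or ATTGG precedes a TTTGAA close to the start. The Tacc3 window holds neither string.

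RefSeq windows were matched for 81 of the 90 member genes, 90 windows in all, since some genes have several starts. TTTGAA was in 68.4% of the 38 windows of members in the G2 and mitosis list, in 17.3% of the 52 windows of the other members and in 17.9% of all 32851 windows. Within the last 100 bases of the window these shares were 55.3%, 5.77% and 4.94%. Both strings together were in 55.3%, 7.69% and 6.95%. CCAAT, with or without TTTGAA, was in 63.2%, 38.5% and 37.4% of these sets. Of the 11 windows of genes called lower 7 held TTTGAA and 10 held CCAAT, and of the 9 windows of genes called higher 4 held each. A match is a description of these letters and does not show a bound site.

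Probes whose gene has a TTTGAA in that last stretch had a median of −0.05 on array design 1 (19 probes, 2 lower and 0 higher) and −0.01 on array design 2 (16 probes, 4 lower and 2 higher). The other members with a window stood at 0.02 on array design 1 (30 probes, 2 lower and 3 higher) and −0.0026 on array design 2 (48 probes, 3 lower and 3 higher). The medians without the trend were −0.09 and −0.07 with the string and −0.02 and −0.02 without it. Of the probes with the string, 14 of 19 on array design 1 and 14 of 16 on array design 2 then lay below 0, and of those without it 20 of 30 and 26 of 48. Of the 24 member windows with the string there, 21 belong to genes of the G2 and mitosis list and 3 to others. The split by the string is thus largely the split by the list and not a separate result. As averaged, 5.77% of all probes were lower and 10.2% higher on array design 1, and 8.19% and 19.7% on array design 2. These splits were not tested.

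**Figure D3:**
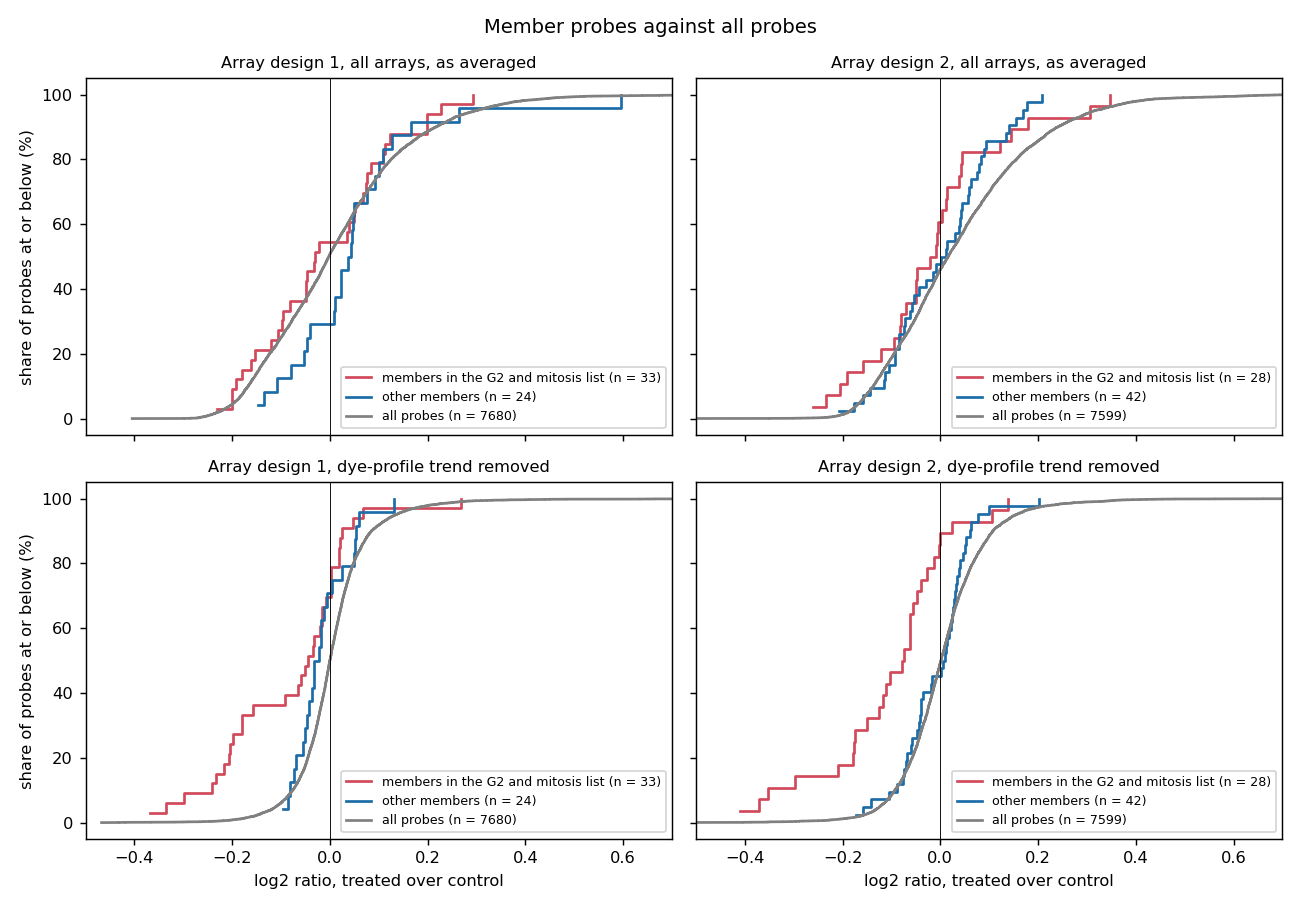
Share of probes at or below each log2 ratio, treated over control, for members in the G2 and mitosis list (red), other members (blue) and all probes (grey), by array design (columns), before (upper row) and after (lower row) removal of the dye-profile trend. After removal the red curves have medians of −0.04 on array design 1 and −0.08 on array design 2, the blue curves −0.03 and 0.0066, and the grey curves −0.0001 and 0.0013, so blue lies nearer to red on array design 1 and nearer to grey on array design 2.

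The members listed as peaking in G2 and mitosis, 40 of the 90 genes, held most of the falls and, as averaged, most of the rises too. They had, on array design 1, 4 lower and 3 higher calls among 33 probes with a median of −0.03, and the other members had 0 lower and 2 higher among 24 with a median of 0.04. Array design 2 had 5 lower and 4 higher among 28 with a median of −0.01 among the listed genes, and the others had 3 lower and 2 higher among 42 with a median of 0.0064. Lower calls were thus 12.1% and 17.9% of the listed probes on array designs 1 and 2, against 5.77% and 8.19% of all probes. Higher calls were 9.09% and 14.3% of them, against 10.2% and 19.7%. After trend removal the listed genes had 6 lower of 33 and 8 lower of 28, against 0 of 24 and 2 of 42 in the others. Of all probes, 0.56% and 1.83% were then lower. Of the 28 listed probes on array design 2, 25 then lay below 0, against 19 of the 42 others, while array design 1 showed no such gap, with 23 of 33 listed probes and 17 of 24 others below 0.

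The kinetochore and checkpoint group took every Cenp, Bub and Mad2l symbol with Ttk, Ndc80, Nuf2 and Cdc20. It thus holds genes such as Cenpj and Mad2l2 by their letters, whatever their function. Of its probes, 9 of 11 on array design 1 and 15 of 18 on array design 2 did not pass. Lower calls made up 9.09% and 11.1%, against 5.77% and 8.19% of all probes. Higher calls made up 9.09% and 5.56%, against 10.2% and 19.7%. Cenpf, a large protein of the outer kinetochore, fell on array design 1. Its replicates were −0.33, −0.16, −0.05, −0.13 and −0.48, uneven but all below 0, with a mean of −0.23 ± 0.17 (SD, n = 5, limma adjusted p = 0.0365). Mad2l1, the checkpoint protein that binds Cdc20, rose there. Its replicates were 0.17, 0.10, 0.10, 0.32 and 0.44, all above 0 (mean 0.23 ± 0.15, SD, n = 5, limma adjusted p = 0.0331). Its slides with treated embryos in channel 1 averaged −0.03 and those with control embryos in channel 1 0.49. The calls of Cenpf and Mad2l1 ended when any replicate other than 3 was left out (limma adjusted p up to 0.13 and 0.117). Without the trend Cenpf stood at −0.20 and Mad2l1 at 0.02, and neither passed (limma adjusted p = 0.117 and 0.858). Cenpt, which links the inner kinetochore to the outer, had 0.48, 0.11, 0.08, 0.16 and 0.0029 on array design 2 and passed at 0.17 ± 0.18 (SD, n = 5, limma adjusted p = 0.0467). Without replicate 1, which is the highest, its mean was 0.09 (limma adjusted p = 0.257), and its slides with control embryos in channel 1 averaged −0.50. The call of Cenpt ended with the trend removed (−0.02, limma adjusted p = 0.816). Cdc20, the activator of the anaphase-promoting complex, did not pass at −0.02 ± 0.11 (limma adjusted p = 0.824), nor did Bub1, Ttk, Ndc80, Nuf2 and Cenpe.

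Of the mitotic kinesins, 2 of 6 probes were lower on array design 1 and 1 of 3 on array design 2. That is 33.3% on each design, from few probes, against 5.77% and 8.19% of all probes. Kif14, a kinesin of the midbody, gave −0.20, −0.27, −0.24, −0.07 and −0.21 on array design 1, all below 0 (mean −0.20 ± 0.08, SD, n = 5, limma adjusted p = 0.0348). Its fall was not seen in both orientations: slides with treated embryos in channel 1 averaged −0.47 and those with control embryos in channel 1 0.07. Kif11, the bipolar motor that pushes spindle poles apart, passed on array design 2 at −0.16 ± 0.11 (SD, n = 5, limma adjusted p = 0.0383). It is named here after its values were seen, since 1 of its replicates was at 0.0088. Without the trend Kif14 and Kif11 stood at −0.07 and −0.01 and did not pass. Kif2c, Kif18a and Kif22 did not pass on any probe.

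The remaining kinesins were grouped together. Most are known as carriers of cargo along axons or cilia, and the group also holds others such as Kif2a, which depolymerises microtubules at spindle poles. None of their 7 probes passed on array design 1, and 2 of 12 were lower on array design 2 (16.7%, against 8.19% of all probes). Kifc2, a motor known from neurons, gave −0.35, −0.28, −0.21, −0.13 and −0.07, with every replicate below 0 (mean −0.21 ± 0.11, SD, n = 5, limma adjusted p = 0.00881). The probe of Kif3a numbered 153, of the ciliary kinesin-2, averaged −0.16 ± 0.12 (SD, n = 5, limma adjusted p = 0.0413). Kifc2 stood at −0.07 once the trend was removed and missed the threshold (limma adjusted p = 0.322). The Kif3a probes traded places: the one numbered 153 stood at −0.04, and the one numbered 5238 passed at −0.17 (limma adjusted p = 0.656 and 0.047).

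The mitotic kinases and chromosomal passengers were on array design 1 only, with 1 of 9 probes higher and 1 lower. That is 11.1% each way, against 10.2% higher and 5.77% lower among all probes. Aurkb, the kinase of the chromosomal passenger complex, gave 0.09, 0.30, 0.10, 0.47 and 0.51, all above 0 (mean 0.29 ± 0.20, SD, n = 5, limma adjusted p = 0.0186). Its slides with treated embryos in channel 1 averaged 0.68 and those with control embryos in channel 1 −0.10. Nek2, a kinase of centrosome separation, gave −0.14, −0.24, −0.22, −0.12 and −0.17, a tight group below 0 (mean −0.18 ± 0.05, SD, n = 5, limma adjusted p = 0.0436). Leaving out any 1 replicate ended the call of Nek2 (limma adjusted p up to 0.118). The partners Incenp and Birc5 of the same passenger complex did not pass, at −0.08 and −0.05 for the Incenp probes and 0.12 for Birc5.

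Aurka, the kinase of spindle poles, and Plk1, the Polo kinase of mitotic entry, did not pass as averaged. Aurka stood at −0.35, −0.15, −0.06, −0.07 and 0.03 (mean −0.12 ± 0.14, SD, n = 5, limma adjusted p = 0.2). Its trend-removed replicates were −0.44, −0.25, −0.24, −0.33 and −0.23, all below 0 (mean −0.30 ± 0.09, SD, n = 5, limma adjusted p = 0.00777). Plk1 stood at −0.10 ± 0.14, and at −0.22 with the trend removed (limma adjusted p = 0.304 and 0.0851). With treated embryos in channel 1 only and no trend removed, both kinases had the opposite sign, Aurka at 0.20 and Plk1 at 0.46. After trend removal Aurkb kept 0.27 but spread over ± 0.30 (SD, n = 5, limma adjusted p = 0.225), and Nek2 stood at −0.06 (limma adjusted p = 0.45).

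The group of condensin, cohesin and chromosome structure also holds Top2a, Mki67, Smc5, Smc6 and Smchd1. Array design 1 held 14 probes of it, with 1 rise and no fall, or 7.14% higher against 10.2% of all probes. Array design 2 held 13, with 4 rises and 1 fall, or 30.8% higher against 19.7% of all probes. Ncaph, the kleisin subunit of condensin I, gave 0.53, 0.16, 0.27, 0.33 and 0.25 on array design 2. Every replicate was above 0, and both orientations were too, at 0.10 with treated and 0.51 with control embryos in channel 1. The mean was 0.31 ± 0.14 (SD, n = 5, limma adjusted p = 0.000372), a 1.24-fold higher value in treated embryos. Ncapg, a HEAT-repeat subunit of the same complex, had a mean on array design 2 of 0.18 ± 0.15 (SD, n = 5, limma adjusted p = 0.0276) and 0.04 ± 0.09 on array design 1, where it did not pass. Its call ended without replicate 1 (0.12, limma adjusted p = 0.151) or replicate 4 (0.17, limma adjusted p = 0.0843).

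Smc4, the ATPase core of both condensins, was above 0 on all 3 probes. Those on array design 1 averaged 0.20 ± 0.09 and 0.11 ± 0.14, and the one on array design 2 averaged 0.14 ± 0.08 (SD, n = 5). The first and the last passed (limma adjusted p = 0.0375 and 0.0467). Both calls ended when any 1 replicate was left out (limma adjusted p up to 0.13 and 0.12). With treated embryos in channel 1 only, the Smc4 probe at 0.11 averaged −0.074 and the one on array design 2 −0.055. The remaining one stood at 0.10 there. Smc1a, of the cohesin ring, had means of 0.21 ± 0.12 (array design 2) and 0.17 ± 0.14 (array design 1, limma adjusted p = 0.00921 and 0.0851, n = 5 each). The call of Smc1a ended without replicate 1 (0.16, limma adjusted p = 0.0628). Smc1b, the cohesin subunit known from meiosis, fell on 1 of its 2 array design 2 probes (−0.18 ± 0.08, SD, n = 5, limma adjusted p = 0.0181). The calls of Ncaph, Ncapg, Smc4, Smc1a and Smc1b all ended with the trend removed, when Ncaph stood at 0.11, Ncapg at 0.14, the Smc4 probes between −0.04 and 0.02, Smc1a at 0.04 and Smc1b at −0.07 on array design 2 (limma adjusted p = 0.212 for Ncaph).

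Top2a, the topoisomerase that untangles sister chromatids, was near 0 as averaged and below 0 with the trend removed. As averaged it stood at 0.08 ± 0.16 on array design 1 and −0.0052 ± 0.11 on array design 2 (SD, n = 5). Its trend-removed replicates were −0.19, −0.20, −0.07, −0.22 and −0.22 on array design 1 and −0.28, −0.34, −0.18, −0.14 and −0.11 on array design 2. All lay below 0 on both designs, which carry the same replicate numbers, with means of −0.18 and −0.21 (limma adjusted p = 0.0413 and 0.022). Ncapd2, another condensin I subunit, then also passed on array design 2 at −0.18 (limma adjusted p = 0.0327), and stood at −0.24 on array design 1 without passing (limma adjusted p = 0.173). Mki67, the proliferation antigen that coats mitotic chromosomes, averaged 0.05 ± 0.14 (limma adjusted p = 0.623) and stood at −0.04 with the trend removed.

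Among genes of anaphase promotion and separation, 2 of 6 probes were higher on array design 1 and none of 14 passed on array design 2. Of all probes, 10.2% were higher on array design 1, and 19.7% were higher and 8.19% lower on array design 2. Anapc7, a scaffold subunit of the anaphase-promoting complex, had the largest mean of all members. Its replicates were 0.34, 0.52, 0.37, 0.68 and 1.06, all above 0, and the mean was 0.60 ± 0.29 (SD, n = 5, limma adjusted p = 0.00184), a 1.51-fold higher value in treated embryos. The orientations did not share that sign: slides with treated embryos in channel 1 averaged −0.17 and those with control embryos in channel 1 1.36. Without the trend Anapc7 stood at 0.13 ± 0.06 and did not pass (limma adjusted p = 0.123).

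Anapc4, another scaffold subunit, was read by 5 probes. The one on array design 1 averaged 0.26 ± 0.20 (SD, n = 5, limma adjusted p = 0.0266), a call that ended with the trend removed (0.05, limma adjusted p = 0.609), and the 4 on array design 2 lay between −0.11 and 0.14 without passing. Pttg1, or securin, which guards separase until anaphase, did not pass as averaged on any of 3 probes, between −0.12 and −0.006. With the trend removed they stood at −0.20 on array design 1 and −0.30 and −0.17 on array design 2, and those at −0.20 and −0.30 passed (limma adjusted p = 0.0431 and 0.0031). Anapc10, the substrate co-receptor of the complex, then passed too, at −0.16 (limma adjusted p = 0.0428). Espl1, the separase itself, stayed between −0.01 and 0.04 on its probes as averaged.

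Prc1, which bundles the microtubules of the midzone, was the one member whose designs differed. Its replicates on array design 2 were 0.37, 0.32, 0.26, 0.28 and 0.50, all above 0, with a mean of 0.35 ± 0.09 (SD, n = 5, limma adjusted p = 4.83e-05). Those on array design 1 were −0.31, −0.29, −0.33, −0.02 and −0.03, all below 0, with a mean of −0.20 ± 0.16 (SD, n = 5, limma adjusted p = 0.0523). The designs did not overlap, and their difference of −0.55 (array design 1 minus array design 2) passed over the 943 genes on both (limma adjusted p = 0.000259), where 4.88% of genes did. Slides of array design 2 averaged −0.30 with treated and 1.00 with control embryos in channel 1, while those of array design 1 averaged −0.25 and −0.15. After trend removal Prc1 stood at −0.37 ± 0.06 on array design 1 and, on array design 2, at −0.05 ± 0.06 (SD, n = 5, limma adjusted p = 0.00112 and 0.448), and the designs still differed (−0.32, limma adjusted p = 0.00276, against 0.954% of genes). Anln, an anchor of the contractile ring, did not pass at 0.11 ± 0.12.

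**Figure D4:**
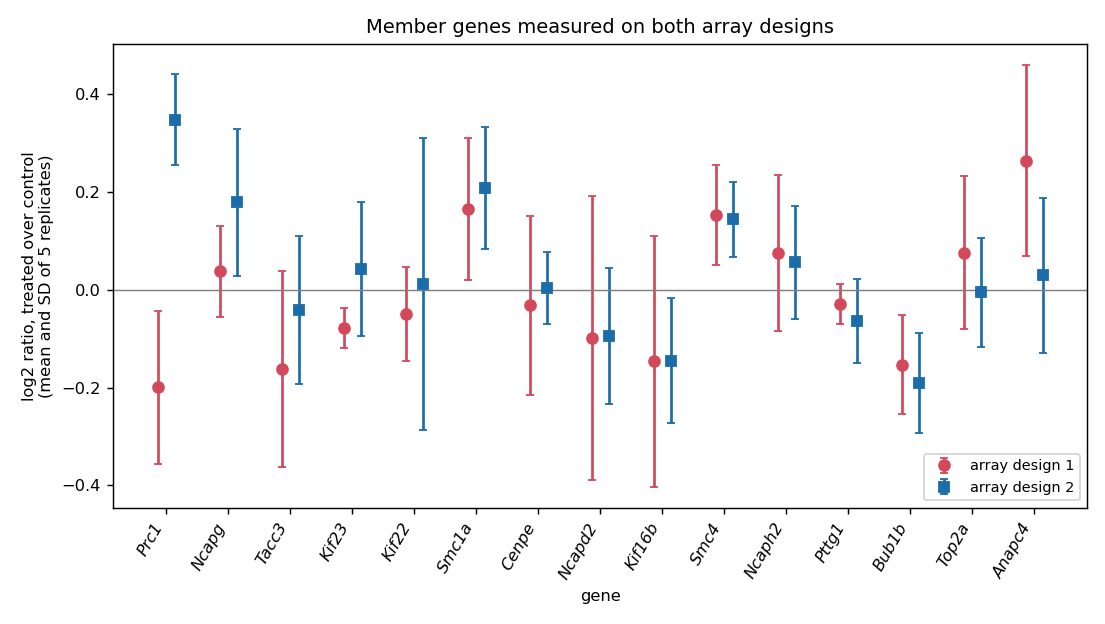
Mean log2 ratio, treated over control, with the SD of 5 replicates (y axis) for the 15 member genes on both array designs (x axis, probes of a gene averaged). Red is array design 1 and blue array design 2. Prc1 has means of −0.20 and 0.35, and the other genes' intervals overlap.

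The other 14 genes on both designs did not differ by the test (limma adjusted p of 0.178 for Anapc4 and higher for the rest). As averaged, 5 of the 15 were below 0 on both designs and 5 above 0 on both. With the trend removed 9 were below 0 on both and 2 above. Over both designs, 28 member genes had several probes. The probes of 18 of them had one sign as averaged and those of 19 with the trend removed, and in none did all probes pass while in 11 some did. The median spread between the lowest and the highest probe of a gene was 0.08.

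Spindle pole and microtubule genes other than Tacc3 did not pass. Nusap1, a microtubule bundler near chromosomes, stood at −0.05, Tpx2, the activator of Aurora A, at −0.08, and the γ-tubulin ring subunits Tubgcp2 and Tubgcp5 at 0.13 and 0.0008. The other Nek kinases, Nek7, Nek8 and Nek9, lay between −0.09 and 0.05 and did not pass.

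The septins, filament-forming GTPases of the cleavage furrow, fall outside the members by their spelling and are given as neighbours. Of 5 probes on array design 2, 3 were higher and 1 lower, and on array design 1 none of 2 passed. Among all probes of array design 2, 19.7% were higher and 8.19% lower. Septin6 gave 0.53, 0.32, 0.31, 0.39 and 0.42, well above 0 throughout (mean 0.39 ± 0.09, SD, n = 5, limma adjusted p = 1.25e-05), and it still passed at 0.21 with the trend removed (limma adjusted p = 0.00956). Septin11 and Septin2 rose by 0.26 and 0.17 and Septin9 stood at −0.20 with 1 replicate above 0. The trend-removed values of these 3 were 0.03, −0.03 and −0.10, and none passed.

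Other genes of G2, mitosis and chromosome segregation, from a list chosen apart from the members, moved as little. Of 41 probes on array design 1, 5 were higher and 1 lower, and on array design 2, 5 of 43 were higher and 2 lower. For array design 1 that is 12.2% higher and 2.44% lower, against 10.2% and 5.77% of all probes. For array design 2 it is 11.6% and 4.65%, against 19.7% and 8.19%. On array design 1 Zwint, a kinetochore protein, rose by 0.32, Ccnf, a cyclin of G2, by 0.31 on 1 of 2 probes, Spc24, of the Ndc80 complex, by 0.24, and Zwilch, a checkpoint protein, by 0.23, while Aspm, a spindle pole protein, stood at −0.20 and was lower (limma adjusted p = 0.00872, 0.00928, 0.0305, 0.0337 and 0.0355). On array design 2 Mybl2, the factor that activates mitotic genes with MuvB, rose by 0.28, Tmpo, of the nuclear lamina, by 0.23, Ran, the GTPase of spindle assembly, by 0.19 and Ccna2, cyclin A2, by 0.16, each on at least 1 probe, and Nipbl, the cohesin loader, was lower at −0.23 on 1 of 3 probes (limma adjusted p = 0.000871, 0.00236, 0.0114, 0.0346 and 0.00578). Cks2, a small partner of cyclin-dependent kinases, was the other lower probe there, at −0.14 (limma adjusted p = 0.0459), and is named after its values were seen. It kept its call with the trend removed, at −0.23 (limma adjusted p = 0.0109), and none of the other probes named from this list did. No probe of the list was then higher, and 2 of 41 and 4 of 43 were lower, against 0.56% and 1.83% of all probes. Among these was the Ccna2 probe on array design 1. It stood at 0.08 as averaged, without passing, and at −0.18 with the trend removed (limma adjusted p = 0.0428).

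Markers of cell types were read for shifts only. Among erythroid markers, 5 of 6 probes on array design 2 were higher, 4 of them Hbb-y between 0.58 and 0.63 and 1 Hba-x at 0.58, and 4 still were with the trend removed. Of all probes there, 19.7% were higher as averaged and 3.18% with the trend removed. Alas2, the remaining erythroid probe on array design 2, stood at −0.0024 and did not pass (limma adjusted p = 0.978). Hba-x averaged −0.0006 in slides with treated embryos in channel 1 and 1.16 in those with control embryos in channel 1. Gata1, the erythroid factor on array design 1, stood at −0.10 and did not pass. None of 4 visceral endoderm probes on array design 1 and of 1 on array design 2 passed, at −0.20 to −0.02. Of placental and decidual markers 1 of 3 and 1 of 2 probes were lower (Prl8a2 at −0.23, Dcn at −0.18), and of neural markers Tubb3 was higher at 0.28 on array design 1, with 1 of 5 replicates below 0. Of all probes, 5.77% were lower and 10.2% higher on array design 1, and 8.19% were lower on array design 2. The calls of Prl8a2, Dcn and Tubb3 ended with the trend removed, when Prl8a2 stood at −0.03, Dcn at −0.07 and Tubb3 at 0.07. The part of these cell types in the members' values was not tested.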

How the data were processed

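The 2 tables deposited by the authors hold a ratio of the channels for each array, taken to be on the log2 scale. The base, the numerator, the scanner, the background correction and the normalization are not given in the labels or tables. What the B readouts stand for is not stated either. Array medians ran from −1.73 to 1.69, so the authors' values had not been centred.

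Each array was centred on its median, spots of one accession were averaged (7680 and 7599 probes), and readouts lacking over 5% of values were left out (1 readout, of replicate 4 on array design 1). Ratios with control embryos in channel 1 were turned, readouts and then orientations averaged, and the mean of the 5 replicate values was set against 0 (limma 3.58.1, R 4.3.3, lmFit and eBayes, two-sided, with Benjamini-Hochberg adjustment over all probes of a design). Genes on both designs were compared with limma over 943 genes, 5 replicate values against 5. That comparison was not paired by replicate number, though both designs carry the same numbers. Since only the labels call the replicates separate samples, the p-values measure a spread that may be technical, and the number of arrays limits the precision. For the trend, each replicate's values were fitted with mgcv 1.9.3 on 3 principal components, the first ones of the dye part. Only the limma fits of treated over control were tested on simulated data, which held no dye effect. The trend fits and the comparison of designs were not part of that test.

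Named are the up to 12 largest rises and 12 largest falls with one sign in all replicates, the smallest p in each role, genes on both designs with a call, and 10 fixed genes. Other settings were no centring, scaling, readouts, orientations, single arrays with a replicate block, slide series, robust fits, a stricter threshold and a position trend. Members, lists and settings were chosen with earlier results of these data known. Symbols came from the platform annotation, and promoters from RefSeq.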

Additional observations from a re-analysis of the deposited data

Results flagged for a closer look

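Plk1 on array design 1 drew attention through 1 replicate. Its replicates were 0.0053, −0.04, −0.03, −0.07 and −0.34, and replicate 5 lay further from the nearest other value than Dixon's limit allows (a gap of 0.775 of the whole range, against 0.71). Chance alone flags about 1 in 20 groups of values. Prc1 differed between the array designs, with means of −0.20 on array design 1 and 0.35 on array design 2 and a tested difference of −0.55 (limma adjusted p = 0.000259).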

How the results depend on the processing

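The medians of the members moved by less than 1 SD of the replicates under the settings tried except without centring, when they were −0.29 on array design 1 and −0.44 on array design 2, and with control embryos in channel 1 only, when array design 1 had −0.045. Counts of calls moved more. Of the calls among named probes, 5 of 22 held with each replicate left out in turn (Anapc7, Prc1 on array design 2, Ncaph, Racgap1 and Cenpa), while leaving out replicate 1, 2, 3, 4 or 5 ended 14, 11, 6, 13 and 9 calls. With a replicate left out, array design 1 had 1 to 4 higher and 0 to 2 lower member calls with a median of −0.0006 to 0.045, and array design 2 had 2 to 8 higher and 4 to 8 lower with a median of −0.036 to 0.0063. Only ratios were deposited, so signal over background could not be used to weigh a probe.

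On array design 1, against 5 higher and 4 lower member calls, the counts were 1 and 50 without centring, 3 and 0 with arrays scaled to one spread, 0 and 0 with the readout lacking values kept, 2 and 0 with plain readouts only, 0 and 0 with B readouts only, 3 and 9 with control embryos in channel 1 only, 2 and 0 with the slide series as a term, 1 and 0 within series 2000 and within series 3000, 1 and 0 at an adjusted p of 0.01, and 1 and 0 with a position trend removed. Treated embryos in channel 1 only gave 11 higher calls, removal of the dye-profile trend gave 0 higher, and single arrays with a replicate block gave 2 lower. On array design 2, against 6 higher and 8 lower, the counts were 0 and 68 without centring, 3 and 5 with arrays scaled, 3 and 3 with plain readouts only, 3 and 3 with treated and 1 and 1 with control embryos in channel 1 only, 2 and 2 within series 3000, 3 and 3 at an adjusted p of 0.01 and 0 higher with the dye-profile trend removed. A position trend removed gave 14 lower. Without centring 82.5% and 87.3% of all probes were lower. Robust fits and a demand for values in all replicates changed no call. Where no share of all probes is given for a setting, a left-out replicate included, its counts of member calls cannot be set against the background.

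Probes named above changed sign under these settings. Without centring they were Smc1a (−0.15), Top2a (−0.24), Kif23 (−0.28), Mad2l1 (−0.085), Smc4 (−0.11), Mki67 (−0.26), Anapc4 (−0.048), Ncapg (−0.27), Aurkb (−0.021) and Smc4 (−0.20) on array design 1, and Kif23 (−0.39), Anapc4 (−0.38), Anapc4 (−0.39), Smc1a (−0.22), Ncapg (−0.25), Cenpt (−0.26), Prc1 (−0.081), Tacc3 (−0.31), Anapc4 (−0.29), Smc4 (−0.28) and Ncaph (−0.12) on array design 2. With the dye-profile trend removed they were Smc1a (−0.033), Top2a (−0.18), Kif23 (−0.050), Mki67 (−0.044) and Smc4 (−0.015) on array design 1, and Kif23 (−0.027), Anapc4 (−0.058), Cenpt (−0.017), Nek8 (0.030), Prc1 (−0.048), Tacc3 (−0.061) and Smc4 (−0.039) on array design 2. With treated embryos in channel 1 only they were Mad2l1 (−0.031), Ncapg (−0.21), Anapc7 (−0.17), Aurka (0.20), Cdc20 (0.098), Plk1 (0.46) and Smc4 (−0.074) on array design 1, and Anapc4 (−0.022), Anapc4 (−0.062), Prc1 (−0.30) and Smc4 (−0.055) on array design 2. With control embryos in channel 1 only they were Smc1a (−0.035), Kif14 (0.070), Mki67 (−0.59) and Aurkb (−0.097) on array design 1, and Kif3a (0.15), Smc1b (0.12), Kif23 (−0.21), Top2a (0.099), Cenpt (−0.50), Nek8 (0.024), Tacc3 (−0.65) and Anapc4 (−0.047) on array design 2. Removal of the position trend turned Cdc20 (0.019) on array design 1, and Kif23 (−0.011) and Top2a (0.030) on array design 2. Within slide series 2000 the sign turned for Top2a (−0.012) and Kif23 (−0.011) on array design 1, and Anapc4 (−0.026) on array design 2, and within series 3000 for Cdc20 (0.011) on array design 1, and Kif23 (−0.070) and Top2a (0.080) on array design 2. One probe each turned with arrays scaled, Mki67 (−0.053) on array design 1, with plain readouts, Nek8 (0.025) on array design 2, with B readouts, Ncapg (−0.018) on array design 1, and with the slide series as a term, Top2a (0.0091) on array design 2. With a replicate left out, the Anapc4 probe numbered 2843 ran from −0.0054 to 0.10 and Top2a from −0.032 to 0.041 on array design 2. The causes were not tested.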
